A study of Homo sapiens with 8 samples.

Results

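The genes described here build the machinery that brings new secretory and membrane proteins into the endoplasmic reticulum (ER): the signal recognition particle (SRP) and its receptor, the SEC61 channel and its partners, the translocon-associated protein (TRAP) complex, signal peptidase and the ER membrane protein complex (EMC). The list was drawn up by gene name from these known roles, at a time when earlier results of these data were known, and holds 34 genes, of which 33 were measured among 19775 genes on the arrays. SEC61G, the small gamma subunit of the channel, could not be reported, since the annotation table gives it no probe set of its own symbol alone. The 33 genes carry 82 probe sets, each gene is represented by its brightest one, and for 22 genes other probe sets gave a second reading.

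RNA was measured on 8 Affymetrix arrays, 2 in each of 4 groups. MDA-MB-231, a triple-negative breast cancer line with mesenchymal features, carried a hairpin against XBP1 (shXBP1) or a control hairpin (shCtrl), and T47D, a luminal line that expresses the oestrogen receptor, carried the same pair. All 4 groups had been infected with lentivirus, held in puromycin at 2 ug/ml, and kept for 24 h at 0.1% O2 in medium without glucose and with 10% serum, so hypoxia and glucose deprivation are shared by shXBP1 and shCtrl cells, and no unstressed cells were analysed here. The sources used here do not say how many hairpin sequences or infections stand behind each group. The labels call the 2 arrays of a group biological replicates without saying what was grown or infected separately, and the p-values measure the spread between these arrays.

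Proteins that are to be secreted or built into membranes carry a hydrophobic signal that SRP binds as it leaves the ribosome. SRP hands the ribosome to its receptor on the ER membrane, the chain passes through or into the SEC61 channel with help from TRAP, TRAM and SEC62 with SEC63, and signal peptidase removes the signal in the lumen, while the EMC inserts membrane segments that SEC61 handles poorly. The XBP1 protein drives transcription in the unfolded protein response once the ER sensor IRE1 has spliced its mRNA, and genes of ER protein entry are among its known targets in secretory cells.

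The stretch of DNA just upstream of the RefSeq transcription start (250 bases, GRCh38.p14) was available for 30 of the listed genes, in 37 windows because some genes have several starts. Windows were searched on both strands for the unfolded protein response element TGACGTGG, for the short core CCACG that lies within it on the opposite strand, and for the hypoxia cores ACGTG and GCGTG, which overlap these motifs. The response element lay in the windows of 4 of 30 genes (13.3%), against 0.784% of all 27167 genes with a window. These 4 stretches are shown because they hold that match, in capitals, which reads CCACGTCA on the strand of the gene.
SEC62, chr3:169966770-169966806, plus strand: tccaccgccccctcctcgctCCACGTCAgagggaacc
SRP19, chr5:112861155-112861202, plus strand: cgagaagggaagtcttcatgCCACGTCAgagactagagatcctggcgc
SSR3, chr3:156554139-156554186, minus strand: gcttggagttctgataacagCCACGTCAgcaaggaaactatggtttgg
SSR4, chrX:153794519-153794566, plus strand: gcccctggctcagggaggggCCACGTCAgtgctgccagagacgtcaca
The match began 17 bases before the start in SEC62, 112 in SRP19, 41 in SSR3 and 129 in SSR4. SSR3 and SSR4 have several starts, and in each gene the match lay in the window of 1 start and in no other. The SSR3 match lies downstream of the other SSR3 starts, whose windows are chr3:156554846-156555095 and chr3:156555118-156555367. The SSR4 match likewise lies downstream of the other SSR4 start, whose window is chrX:153794199-153794448. A gene was counted if any of its windows held the motif. The core CCACG lay in the windows of 20 genes (66.7%, against 37.5% of all genes), ACGTG in 12 (40%, against 21.7%) and GCGTG in 17 (56.7%, against 36.2%). The ER stress element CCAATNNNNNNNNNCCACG and its second form, ATTGG and CCACG with 1 base of any kind between them, were found in 0 of the 30 genes (0.092% and 0.0663% of all genes). A match is a description of the letters and no measure of binding.

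Whole windows are given for SSR1, with the largest difference between the lines, and EMC1, called lower in both lines with the probe set used. The window of SEC11C, the catalytic signal peptidase subunit that was lower in T47D shXBP1 cells, is given too. The core CCACG, or CGTGG where it lies on the opposite strand, is in capitals.
SSR1, chr6:7313200-7313449, minus strand: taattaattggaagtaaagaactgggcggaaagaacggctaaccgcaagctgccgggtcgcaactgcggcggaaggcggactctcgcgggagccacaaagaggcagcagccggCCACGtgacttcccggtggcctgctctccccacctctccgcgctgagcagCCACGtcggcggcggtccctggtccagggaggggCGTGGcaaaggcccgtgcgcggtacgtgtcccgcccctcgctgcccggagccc
EMC1, chr1:19251525-19251774, minus strand: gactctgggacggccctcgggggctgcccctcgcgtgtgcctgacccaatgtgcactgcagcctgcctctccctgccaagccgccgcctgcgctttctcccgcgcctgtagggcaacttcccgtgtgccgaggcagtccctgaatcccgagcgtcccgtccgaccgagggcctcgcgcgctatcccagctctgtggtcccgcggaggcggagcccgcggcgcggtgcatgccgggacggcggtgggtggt
SEC11C, chr18:59139634-59139883, plus strand: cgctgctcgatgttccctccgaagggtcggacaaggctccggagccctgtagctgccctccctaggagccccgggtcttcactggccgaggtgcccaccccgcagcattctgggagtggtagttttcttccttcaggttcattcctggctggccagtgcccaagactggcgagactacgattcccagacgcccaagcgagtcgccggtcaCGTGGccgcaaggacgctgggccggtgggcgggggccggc
The SSR1 window holds 3 such cores, 137, 87 and 53 bases before the start, and the SEC11C window holds 1, 40 bases before it. In the EMC1 window these 5 letters do not occur.

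XBP1 itself checks the labels. Its level on the log2 scale was 7.13 and 6.69 in MDA-MB-231 shXBP1 cells, against 10.83 and 10.69 in shCtrl cells (difference -3.85, SE 0.17, limma adjusted p = 6.93e-05). Its T47D level was 7.52 and 7.16 with shXBP1, against 12.41 and 12.56 with shCtrl (difference -5.15, SE 0.17, adjusted p = 8.68e-06). XBP1 was thus lower on every shXBP1 array of each line, and the fall differed between the lines (smaller in MDA-MB-231, adjusted p = 0.00745). The shCtrl level of MDA-MB-231 was also below that of T47D (difference -1.73, adjusted p = 7.02e-05). Of the marker genes, 8 of 8 luminal markers were lower and 7 of 8 mesenchymal-like markers (all but FN1, which was lower) higher in MDA-MB-231 shCtrl than in T47D shCtrl cells, and 0 of 5 leukocyte markers were called in any comparison, with group means between 3.88 and 6.25 beside a median of 5.96 over all probe sets. Of 4 fibroblast markers, 2 were higher in MDA-MB-231 with shCtrl and 1 with shXBP1. Markers also moved with the knockdown. In MDA-MB-231, 2 of 8 luminal markers rose and 0 fell, 2 of 8 mesenchymal-like markers rose (FN1 by 2.66, adjusted p = 3.63e-05) and 1 fell, and 0 of 4 fibroblast markers were called. In T47D, 1 luminal marker rose and 4 fell (KRT8 by 1.33, adjusted p = 7.43e-05), 0 mesenchymal-like markers rose and 3 fell, and 1 fibroblast marker rose (COL1A1, 0.70, adjusted p = 0.0223). Their part in the results below was not tested. Replicate arrays correlated at 0.996 to 0.998 over all genes.

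In MDA-MB-231, 4 of the 33 genes rose with shXBP1 (SEC63, SSR1, SPCS3 and EMC3), 3 fell (SRP72, SEC62 and EMC1) and 26 did not pass the test. In T47D, 3 rose (SRP9, SRP19 and SRPRA), 12 fell (SRP68, SRPRB, SEC61A2, SEC61B, TRAM1, SSR1, SSR4, SPCS3, SEC11C, EMC1, EMC4 and EMC7) and 18 did not pass. Calls here and below are limma tests with p-values adjusted by Benjamini-Hochberg over all 19775 genes and a threshold of 0.05, and a difference is shXBP1 minus shCtrl in log2 units unless another is named.

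Among all genes, 17.2% were called in MDA-MB-231 (10.6% higher and 6.68% lower) and 29.1% in T47D (15.5% higher and 13.5% lower). Of the 33 genes, 21.2% were called in MDA-MB-231 (12.1% higher and 9.09% lower) and 45.5% in T47D (9.09% higher and 36.4% lower). The listed genes are all bright, and among the 6693 genes at least as bright as the dimmest of them 30.4% were called in MDA-MB-231 and 51.6% in T47D (25.6% higher and 26% lower). The share of listed genes called in either direction was thus below that among these 6693 genes in both lines. The share called lower in T47D was above it, at 36.4% beside 26%. This set is a loose match in signal: it starts at the dimmest listed gene, SEC61A2, at percentile 66.16 of mean level, whereas SRP9 lies at 99.26. The median difference of the 33 genes was 0.05 in MDA-MB-231 and -0.13 in T47D, beside 0.03 and -0.02 over all genes. The T47D count depended on each T47D array: it was 6 without shXBP1 replicate 1, 5 without shXBP1 replicate 2, 9 without shCtrl replicate 1 and 7 without shCtrl replicate 2. The MDA-MB-231 count was 4 without its shCtrl replicate 2, and also 4 without either T47D shXBP1 array, which enters only through the shared spread. In bulk RNA, less of a transcript per cell and fewer cells that hold it cannot be told apart.

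**Figure D1:**
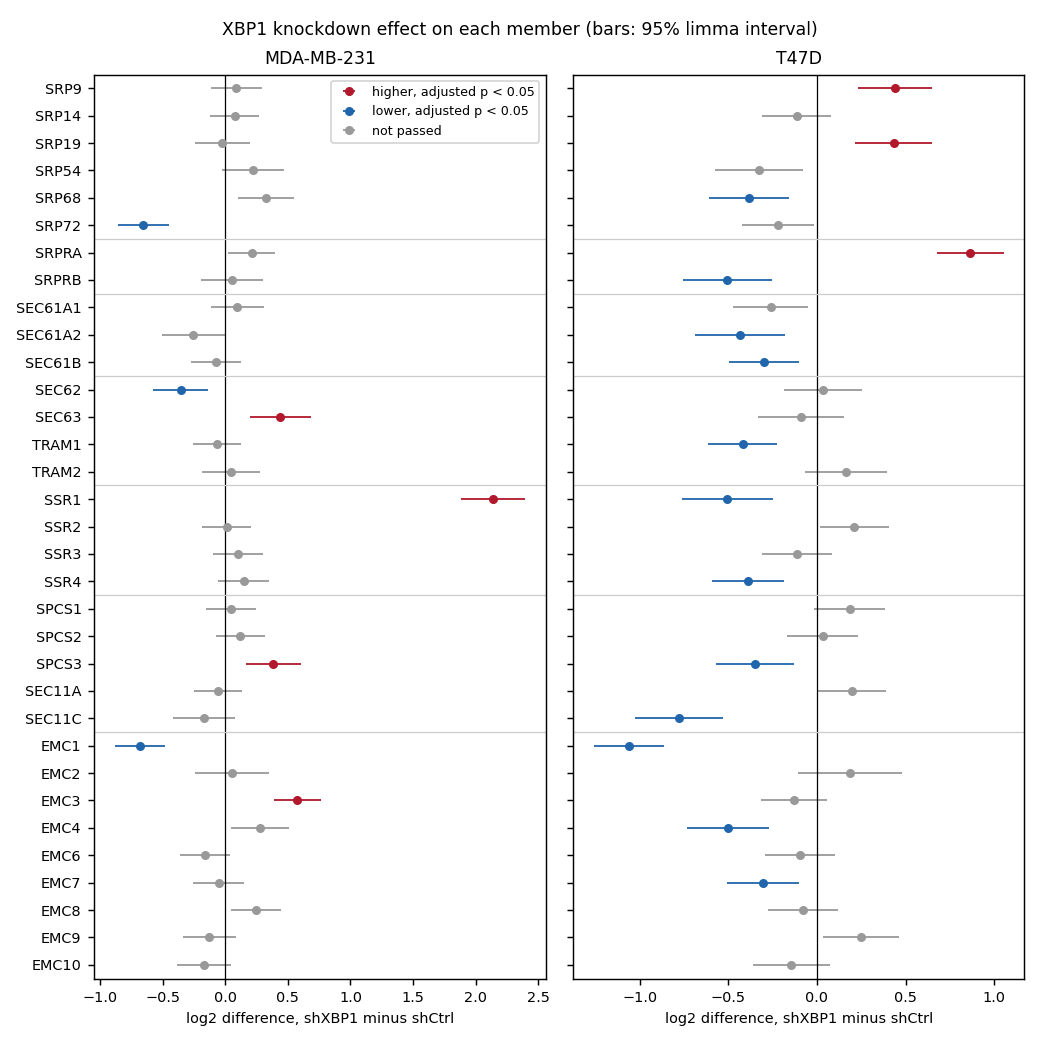
Log2 difference of shXBP1 minus shCtrl for each of the 33 genes (rows, ordered by complex) in MDA-MB-231 (left) and T47D (right), with the 95% limma interval as a bar. The panels have different horizontal scales. In MDA-MB-231 SSR1 stands alone at 2.14, and in T47D 12 genes lie to the left of 0 and 3 to the right among those that passed the test.

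The largest effect belonged to SSR1, which encodes TRAP alpha, the signal-sequence receptor subunit of TRAP that lies beside the channel. In MDA-MB-231 its level was 13.04 and 13.16 with shXBP1, against 10.82 and 11.10 with shCtrl, a difference of 2.14 (SE 0.11, adjusted p = 9.06e-05) or 4.41-fold. The T47D arrays read 12.73 and 12.72 with shXBP1, against 13.23 and 13.23 with shCtrl, a difference of -0.51 (SE 0.11, adjusted p = 0.0106) or 1.42-fold. The hairpin groups did not overlap in either line and lay in opposite orders, and the MDA-MB-231 shCtrl arrays were the lowest of all 8. Subtracting the T47D effect left a difference between the lines of 2.65 (SE 0.16, adjusted p = 0.000114). The fall in T47D missed the threshold without any 1 of the 4 T47D arrays (adjusted p between 0.0515 and 0.0606). With the mean over all SSR1 probe sets in place of the brightest, the difference was 1.07 in MDA-MB-231 (adjusted p = 0.000187) and -0.87 in T47D (adjusted p = 0.000161).

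SSR1 has 6 probe sets, and they differed in size. In MDA-MB-231 4 of them passed the test over probe sets, the brightest with 2.14 and others with 2.06, 1.06 and 0.71. The remaining ones read 0.15 (adjusted p = 0.463) and 0.31 (adjusted p = 0.102), at signals between those of the 4. In T47D all 6 were lower with shXBP1, between -1.26 and -0.50, and all 6 passed. The probe sets thus shared their direction in each line, and in MDA-MB-231 a pair of them did not pass.

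A sign of RNA quality differed between the hairpins in MDA-MB-231. The 3′ minus 5′ log2 signal of the ACTB control probes was 0.893 and 1.104 in MDA-MB-231 shXBP1 cells, against 1.302 and 1.209 in shCtrl cells, and 0.973 and 1.265 in T47D shXBP1 cells, against 1.034 and 0.971 in shCtrl cells. The MDA-MB-231 groups did not overlap in this measure and the T47D groups did. The same measure for GAPDH overlapped in MDA-MB-231, at 0.304 and 0.320 with shXBP1 and 0.270 and 0.334 with shCtrl. Its part in the differences between SSR1 probe sets was not tested.

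**Figure D2:**
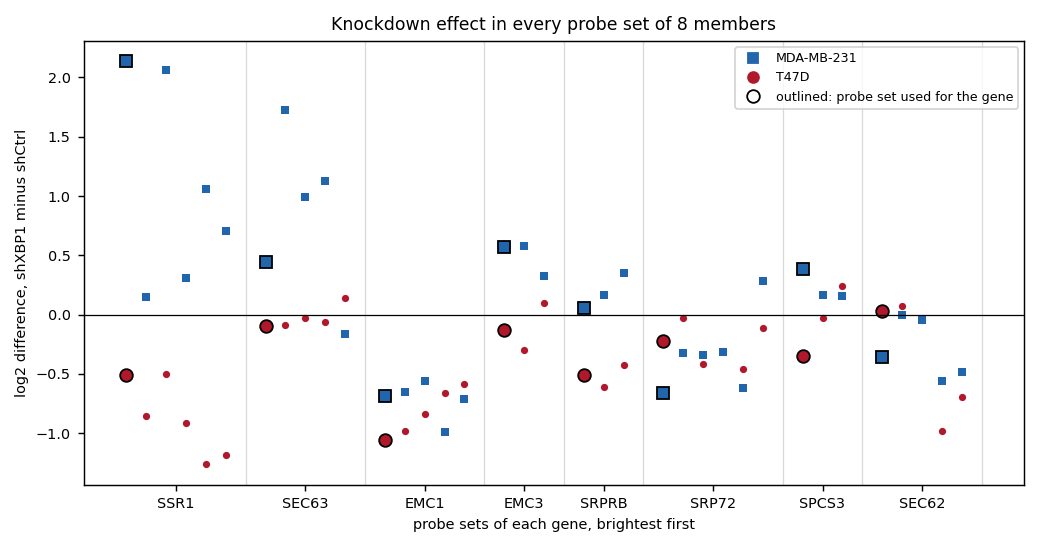
Log2 difference of shXBP1 minus shCtrl in every probe set of 8 genes, brightest first within each gene, with MDA-MB-231 as squares, T47D as circles and the probe set used for the gene outlined. SSR1 lies above 0 in MDA-MB-231 and below 0 in T47D in all 6 probe sets, EMC1 lies below 0 in both lines in all 5, and SPCS3 and SEC62 differ between their probe sets.

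Of the other TRAP subunits, none was called in MDA-MB-231 and 1 fell in T47D. SSR4, TRAP delta, was at 13.33 and 13.25 in MDA-MB-231 shXBP1 cells, against 13.14 and 13.15 in shCtrl cells (0.15, adjusted p = 0.314). On T47D arrays it stood at 12.23 and 12.28 with shXBP1, against 12.59 and 12.70 with shCtrl (-0.39, SE 0.09, adjusted p = 0.0118). SSR4 was lower on both T47D shXBP1 arrays than on either shCtrl array, and the effects differed between the lines by 0.54 (SE 0.12, adjusted p = 0.0166). Without T47D shXBP1 replicate 1, T47D shXBP1 replicate 2 or T47D shCtrl replicate 2, neither the fall (adjusted p between 0.0555 and 0.083) nor the difference between the lines (between 0.053 and 0.0697) passed. SSR2 (TRAP beta) and SSR3 (TRAP gamma) passed in neither line, with differences of 0.01 and 0.10 in MDA-MB-231 and 0.21 and -0.11 in T47D. A dimmer SSR3 probe set read -0.31 in MDA-MB-231 (adjusted p = 0.0947) and -0.54 in T47D (adjusted p = 0.00702), so the SSR3 probe sets disagreed.

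Of the 6 SRP protein genes, 1 fell in MDA-MB-231, and in T47D 2 rose and 1 fell. SRP72, which with SRP68 forms a heterodimer on the particle's RNA, was at 12.12 and 12.14 in MDA-MB-231 shXBP1 cells, against 12.77 and 12.80 in shCtrl cells, a difference of -0.66 (SE 0.09, adjusted p = 0.0024). In T47D it was at 11.98 and 12.11 with shXBP1, against 12.23 and 12.29 with shCtrl (-0.22, adjusted p = 0.102). Its 5 brighter probe sets were all lower with shXBP1 in MDA-MB-231, between -0.66 and -0.31, and 4 of them passed the test over probe sets. The same 5 were lower in T47D, between -0.46 and -0.03, where 2 that were not used for the gene passed (-0.42, adjusted p = 0.0115, and -0.46, adjusted p = 0.0117). The mean over SRP72 probe sets gave -0.33 in MDA-MB-231 (adjusted p = 0.0197) and -0.26 in T47D (adjusted p = 0.0335).

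SRP68, the partner of SRP72, read 11.42 and 11.21 in MDA-MB-231 shXBP1 cells, against 10.99 and 10.99 in shCtrl cells (0.32, adjusted p = 0.0592). In T47D it read 11.30 and 11.25 with shXBP1, against 11.67 and 11.65 with shCtrl (-0.38, SE 0.10, adjusted p = 0.0192). The shXBP1 arrays lay above the shCtrl arrays in MDA-MB-231 and below them in T47D. The difference between the effects was 0.70 for SRP68 (SE 0.14, adjusted p = 0.00793) and -0.44 for SRP72 (SE 0.12, adjusted p = 0.0376). The SRP72 difference rests on the probe set used: the other 4 bright ones read -0.29, 0.08, 0.00 and -0.16, none of which passed, and the mean over probe sets gave -0.07 (adjusted p = 0.693). The T47D fall of SRP68 was lost without any 1 of the 4 T47D arrays (adjusted p between 0.0744 and 0.113), and the SRP72 difference without any 1 of the 8 arrays (between 0.0588 and 0.142).

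SRP9, which with SRP14 binds the Alu end of the RNA and slows elongation, was at 13.56 and 13.69 in MDA-MB-231 shXBP1 cells, against 13.51 and 13.57 in shCtrl cells (0.09, adjusted p = 0.574). Its T47D level was 13.86 and 13.94 with shXBP1, against 13.46 and 13.46 with shCtrl (0.44, SE 0.09, adjusted p = 0.00755). The groups overlapped in MDA-MB-231 and not in T47D, where the call was lost without shXBP1 replicate 2 (adjusted p = 0.0628). Its partner SRP14 differed by 0.07 in MDA-MB-231 and -0.11 in T47D and passed in neither.

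SRP19, which shapes the RNA so that SRP54 can bind, was at 12.42 and 12.42 in MDA-MB-231 shXBP1 cells, against 12.43 and 12.47 in shCtrl cells (-0.03, adjusted p = 0.895). The T47D arrays read 12.17 and 12.27 with shXBP1, against 11.70 and 11.88 with shCtrl (0.43, SE 0.09, adjusted p = 0.0104). SRP54, the GTPase that holds the signal sequence, differed by 0.22 in MDA-MB-231 (adjusted p = 0.213) and by -0.33 in T47D (adjusted p = 0.0529). SRP54 passed in neither line alone, yet its effects differed between them by 0.55 (SE 0.15, adjusted p = 0.0325), and those of SRP19 by -0.46 (SE 0.13, adjusted p = 0.0414). The T47D rise of SRP19 was lost without T47D shXBP1 replicate 2 (adjusted p = 0.0815) or T47D shCtrl replicate 1 (0.0712). The SRP19 difference was lost without any array but T47D shCtrl replicate 2 (adjusted p between 0.0754 and 0.144), and the SRP54 difference without any array but MDA-MB-231 shXBP1 replicate 2 and T47D shXBP1 replicate 2 (between 0.0583 and 0.119).

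The receptor subunits went opposite ways in T47D. SRPRA, a receptor GTPase that docks SRP, was at 10.00 and 10.01 in MDA-MB-231 shXBP1 cells, against 9.82 and 9.78 in shCtrl cells (0.21, adjusted p = 0.129). On T47D arrays it stood at 11.16 and 11.17 with shXBP1, against 10.33 and 10.27 with shCtrl, a difference of 0.87 (SE 0.08, adjusted p = 0.000213) or 1.82-fold. The T47D shXBP1 arrays were the highest of all 8. Its second probe set rose by 0.68 in T47D too (adjusted p = 0.00822) but fell by 0.78 in MDA-MB-231 (adjusted p = 0.0071), where the brighter one did not pass, and the mean of the pair gave -0.29 in MDA-MB-231, which did not pass.

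SRPRB, the membrane-anchored subunit that holds SRPRA on the ER, was at 11.61 and 11.54 in MDA-MB-231 shXBP1 cells, against 11.48 and 11.56 in shCtrl cells (0.05, adjusted p = 0.803). In T47D it was at 11.75 and 11.52 with shXBP1, against 12.08 and 12.20 with shCtrl (-0.51, SE 0.11, adjusted p = 0.00918). All 3 SRPRB probe sets fell in T47D, with differences between -0.61 and -0.42, and none of the 3 passed in MDA-MB-231. The effects differed between the lines by 0.56 for SRPRB (SE 0.15, adjusted p = 0.0323) and by -0.66 for SRPRA (SE 0.11, adjusted p = 0.00522), or -1.06 with the mean over SRPRA probe sets (adjusted p = 0.00106). The T47D fall of SRPRB was lost without T47D shXBP1 replicate 2 (adjusted p = 0.074) or T47D shCtrl replicate 2 (0.0616), and its difference between the lines without any array but T47D shXBP1 replicate 1 (between 0.0516 and 0.115).

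**Figure D3:**
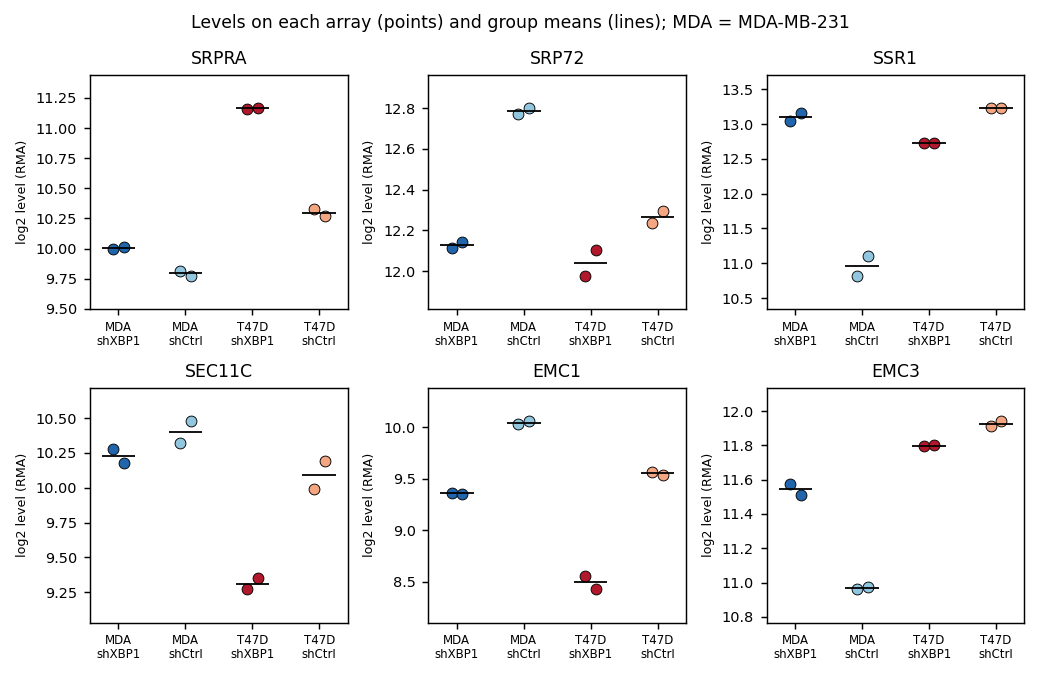
Log2 level on each array (points, 2 per group) and group mean (lines) of SRPRA, SRP72, SSR1, SEC11C, EMC1 and EMC3 in MDA-MB-231 and T47D, shXBP1 beside shCtrl. Each panel has its own vertical scale, which does not start at 0. EMC1 is lower with shXBP1 in both lines, whereas SSR1 is higher with shXBP1 in MDA-MB-231 (13.04 and 13.16) and lower in T47D (12.73 and 12.72).

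Of the 3 measured channel subunits, 0 were called in MDA-MB-231 and 2 fell in T47D. SEC61A1, the pore-forming subunit of the main channel, differed by 0.10 in MDA-MB-231 (adjusted p = 0.543) and -0.26 in T47D (adjusted p = 0.0686), although a dimmer probe set read 0.59 in MDA-MB-231 (adjusted p = 0.0287). Its paralog SEC61A2 was at 7.81 and 7.83 in MDA-MB-231 shXBP1 cells, against 7.996 and 8.16 in shCtrl cells (-0.26, adjusted p = 0.165). In T47D SEC61A2 was at 8.55 and 8.55 with shXBP1, against 8.86 and 9.10 with shCtrl (-0.43, SE 0.11, adjusted p = 0.0199). SEC61A2 was lower on both shXBP1 arrays in each line, and only the T47D difference passed the test. That call was lost without T47D shXBP1 replicate 1 (adjusted p = 0.0932), T47D shXBP1 replicate 2 (0.0952) or T47D shCtrl replicate 2 (0.119). It was also lost with the mean over probe sets (-0.13, adjusted p = 0.414), since the 2 dimmer SEC61A2 probe sets read -0.28 (adjusted p = 0.126) and 0.31 (adjusted p = 0.382) in T47D.

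SEC61B, the small tail-anchored beta subunit, was at 12.96 and 13.04 in MDA-MB-231 shXBP1 cells, against 13.04 and 13.11 in shCtrl cells (-0.07, adjusted p = 0.621). Its T47D level was 12.13 and 12.14 with shXBP1, against 12.40 and 12.47 with shCtrl (-0.30, SE 0.08, adjusted p = 0.0323). The T47D fall was 1.23-fold, and it missed the threshold without any 1 of the 4 T47D arrays (adjusted p between 0.0815 and 0.148). A second, dim probe set (mean 4.84) read -1.46 in MDA-MB-231 (adjusted p = 0.000352) and 0.22 in T47D, against the brighter one. With the mean of these SEC61B probe sets the T47D difference was -0.04 (adjusted p = 0.812), and with quantile normalization applied again -0.22 (adjusted p = 0.0919). That mean passed as lower in MDA-MB-231 (-0.77, adjusted p = 0.000971), where the brighter probe set alone did not.

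SEC63, the J-domain partner that recruits the chaperone BiP to the channel, rose in MDA-MB-231 and did not pass in T47D. In MDA-MB-231 its level was 9.90 and 10.10 with shXBP1, against 9.65 and 9.47 with shCtrl (0.44, SE 0.10, adjusted p = 0.0262). The T47D arrays read 10.43 and 10.42 with shXBP1, against 10.53 and 10.50 with shCtrl (-0.09, adjusted p = 0.595). The effects differed by 0.53 (SE 0.15, adjusted p = 0.0352). Of its 5 probe sets, 4 rose in MDA-MB-231, by 0.44, 1.72, 0.99 and 1.12, and the dimmest (mean 3.71) read -0.16, so the probe set used for the gene had the smallest rise of the 4. The mean over SEC63 probe sets gave 0.82 in MDA-MB-231 (adjusted p = 0.000525) and 0.85 for the difference between the lines (adjusted p = 0.00139). With that probe set the MDA-MB-231 call was lost without MDA-MB-231 shCtrl replicate 2 (adjusted p = 0.114), shXBP1 replicate 2 of that line (0.0991) or either T47D shXBP1 array (0.0552), or with only the MDA-MB-231 arrays in the fit (0.0992), and the difference between the lines without those arrays or either T47D shCtrl array (adjusted p between 0.0786 and 0.104).

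SEC62, which works with SEC63 on chains that reach the channel late, was at 12.01 and 11.98 in MDA-MB-231 shXBP1 cells, against 12.27 and 12.44 in shCtrl cells (-0.36, SE 0.10, adjusted p = 0.0393). On T47D arrays it stood at 13.03 and 13.04 with shXBP1, against 12.94 and 13.06 with shCtrl (0.03, adjusted p = 0.85). The groups overlapped in T47D. The next 2 SEC62 probe sets by signal read 0.00 and -0.05 in MDA-MB-231, and the 2 dimmest read -0.56 and -0.48 in MDA-MB-231 and -0.98 and -0.70 in T47D, so the SEC62 probe sets disagreed. The MDA-MB-231 call was lost without any 1 of the 8 arrays (adjusted p between 0.0505 and 0.16) and with only the MDA-MB-231 arrays in the fit (0.121). With the mean over SEC62 probe sets the T47D difference was -0.32 (adjusted p = 0.0178), and the MDA-MB-231 fall kept its call.

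TRAM1, a membrane protein that chains meet as they enter the channel, was at 12.26 and 12.25 in MDA-MB-231 shXBP1 cells, against 12.35 and 12.28 in shCtrl cells (-0.07, adjusted p = 0.658). In T47D it was at 12.31 and 12.37 with shXBP1, against 12.74 and 12.78 with shCtrl (-0.42, SE 0.08, adjusted p = 0.00662). A second probe set fell by 0.62 in T47D (adjusted p = 0.00182). The call of the brighter one was lost without T47D shXBP1 replicate 1 (adjusted p = 0.0562). Its paralog TRAM2 differed by 0.05 in MDA-MB-231 and 0.16 in T47D and passed in neither.

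Signal peptidase has a catalytic subunit, which is either SEC11A or its paralog SEC11C, and the accessory subunits SPCS1, SPCS2 and SPCS3. SEC11C was at 10.28 and 10.18 in MDA-MB-231 shXBP1 cells, against 10.32 and 10.48 in shCtrl cells (-0.17, adjusted p = 0.346). Its T47D level was 9.27 and 9.35 with shXBP1, against 9.99 and 10.19 with shCtrl, a difference of -0.78 (SE 0.11, adjusted p = 0.00121) or 1.72-fold. The T47D shXBP1 arrays were the lowest of all 8, and the effects differed between the lines by 0.61 (SE 0.15, adjusted p = 0.0227). That difference was lost without MDA-MB-231 shXBP1 replicate 1, MDA-MB-231 shCtrl replicate 1, either T47D shXBP1 array or T47D shCtrl replicate 2 (adjusted p between 0.0593 and 0.0859). A dimmer SEC11C probe set (mean 6.30) read -0.18 in T47D (adjusted p = 0.677). The mean of both gave -0.48 in T47D (adjusted p = 0.0307) and 0.55 for the difference between the lines (adjusted p = 0.072). SEC11A differed by -0.06 in MDA-MB-231 (adjusted p = 0.704) and 0.20 in T47D (adjusted p = 0.118).

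SPCS3, an accessory subunit whose yeast counterpart the enzyme needs for activity, was at 9.82 and 9.92 in MDA-MB-231 shXBP1 cells, against 9.54 and 9.43 in shCtrl cells (0.38, SE 0.09, adjusted p = 0.0294). The T47D arrays read 9.86 and 9.76 with shXBP1, against 10.12 and 10.21 with shCtrl (-0.35, SE 0.09, adjusted p = 0.0262). The effects differed by 0.73 (SE 0.13, adjusted p = 0.00611), with the groups apart in both lines and in opposite orders. The other 2 SPCS3 probe sets read 0.17 and 0.16 in MDA-MB-231 and -0.03 and 0.24 in T47D, and none of these passed, so the calls rest on 1 probe set. The mean over SPCS3 probe sets gave 0.24 in MDA-MB-231 (adjusted p = 0.139), -0.04 in T47D (adjusted p = 0.80) and 0.28 for the difference (adjusted p = 0.18). The MDA-MB-231 rise was lost without any 1 of the 4 MDA-MB-231 arrays or either T47D shXBP1 array (adjusted p between 0.0561 and 0.12) and with only the MDA-MB-231 arrays in the fit (0.0974), and the T47D fall without any 1 of the 4 T47D arrays (between 0.0623 and 0.161). SPCS1 and SPCS2 differed by 0.04 and 0.12 in MDA-MB-231 and by 0.18 and 0.03 in T47D and passed in neither.

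EMC1, the large subunit whose bulk lies in the ER lumen, was the 1 gene of the 33 called lower in both lines with the probe sets used. In MDA-MB-231 it was at 9.37 and 9.35 with shXBP1, against 10.03 and 10.06 with shCtrl, a difference of -0.68 (SE 0.09, adjusted p = 0.00188) or 1.61-fold. On T47D arrays it stood at 8.56 and 8.43 with shXBP1, against 9.56 and 9.54 with shCtrl, a difference of -1.06 (SE 0.09, adjusted p = 0.000116) or 2.09-fold. All 5 EMC1 probe sets fell in both lines, with differences between -0.99 and -0.56 in MDA-MB-231 and between -1.06 and -0.59 in T47D. The effects differed by 0.38 (SE 0.12, adjusted p = 0.0589), which did not pass. Of all genes, 1.93% were lower in both lines, a share that was not taken among genes as bright. With the mean over probe sets SRP72 and SEC62 also passed as lower in both lines. The SRP72 differences were then -0.33 in MDA-MB-231 (adjusted p = 0.0197) and -0.26 in T47D (adjusted p = 0.0335). SEC62 kept its MDA-MB-231 call with that mean and differed by -0.32 in T47D (adjusted p = 0.0178).

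EMC3, the subunit of the EMC related to bacterial membrane insertases, was at 11.57 and 11.51 in MDA-MB-231 shXBP1 cells, against 10.96 and 10.97 in shCtrl cells, a difference of 0.57 (SE 0.08, adjusted p = 0.00298) or 1.49-fold. In T47D it was at 11.80 and 11.80 with shXBP1, against 11.91 and 11.94 with shCtrl (-0.13, adjusted p = 0.301). A second EMC3 probe set rose by 0.58 in MDA-MB-231 as well (adjusted p = 0.00437). The effects differed between the lines by 0.70 (SE 0.11, adjusted p = 0.00377), and the MDA-MB-231 shCtrl arrays were the lowest of all 8.

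EMC4, a membrane subunit of the EMC, was at 13.01 and 12.95 in MDA-MB-231 shXBP1 cells, against 12.62 and 12.78 in shCtrl cells (0.28, adjusted p = 0.10). Its T47D level was 11.78 and 11.86 with shXBP1, against 12.26 and 12.39 with shCtrl (-0.50, SE 0.10, adjusted p = 0.00644). The groups were apart in both lines, and the effects differed by 0.78 (SE 0.14, adjusted p = 0.0057). A second EMC4 probe set read 0.04 in MDA-MB-231 and fell by 0.50 in T47D (adjusted p = 0.00716). The T47D call was lost without T47D shXBP1 replicate 1 (adjusted p = 0.0536).

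EMC7, a subunit with a lumenal domain, was at 11.65 and 11.58 in MDA-MB-231 shXBP1 cells, against 11.64 and 11.70 in shCtrl cells (-0.06, adjusted p = 0.733). The T47D arrays read 11.07 and 11.03 with shXBP1, against 11.31 and 11.41 with shCtrl (-0.30, SE 0.09, adjusted p = 0.0327). The T47D fall was 1.24-fold and was lost without any 1 of the 4 T47D arrays (adjusted p between 0.0646 and 0.162), with the mean over EMC7 probe sets (-0.19, adjusted p = 0.206) and with quantile normalization applied again (-0.25, adjusted p = 0.0534). EMC2, EMC6, EMC8, EMC9 and EMC10 passed in neither line, with differences between -0.17 and 0.24 in MDA-MB-231 and between -0.14 and 0.25 in T47D. EMC8 and EMC9 are paralogs that take the same place in the complex, and a dimmer EMC8 probe set rose by 0.55 in MDA-MB-231 (adjusted p = 0.00588) and by 0.60 in T47D (adjusted p = 0.0022), unlike the brighter EMC8 probe sets. The mean over EMC8 probe sets passed as higher in MDA-MB-231 (0.35, adjusted p = 0.0173).

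Set over the whole list, the difference between the knockdown effects (MDA-MB-231 minus T47D) passed for 13 of the 33 genes. It was positive for 10 (SRP54, SRP68, SRPRB, SEC63, SSR1, SSR4, SPCS3, SEC11C, EMC3 and EMC4) and negative for 3 (SRP19, SRP72 and SRPRA), and 20 did not pass. Among all genes 24.8% passed, 13% positive and 11.8% negative. Among genes as bright 42.8% passed (22.7% positive and 20.1% negative), beside 39.4% of the 33 (30.3% positive and 9.09% negative). The median was 0.21 over the 33 genes and 0.05 over all genes. The count was between 7 and 9 when any 1 array was left out: 8 without MDA-MB-231 shCtrl replicate 1 or replicate 2, 7 without T47D shXBP1 replicate 1 or replicate 2, 8 without T47D shCtrl replicate 1 and 7 without T47D shCtrl replicate 2. SSR1 and SPCS3 were called higher in MDA-MB-231 and lower in T47D, which 1.71% of all genes were, and the SPCS3 calls rest on 1 probe set. In neither line 14 of the 33 genes (42.4%) were called, beside 62.4% of all genes. Neither share was taken among genes as bright, which were called more often than all genes in each line. Of the 4 genes with the response element shown above, SEC62 fell in MDA-MB-231 and the other 3 did not pass there, while in T47D SRP19 rose, SSR4 fell, and SEC62 and SSR3 did not pass.

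**Figure D4:**
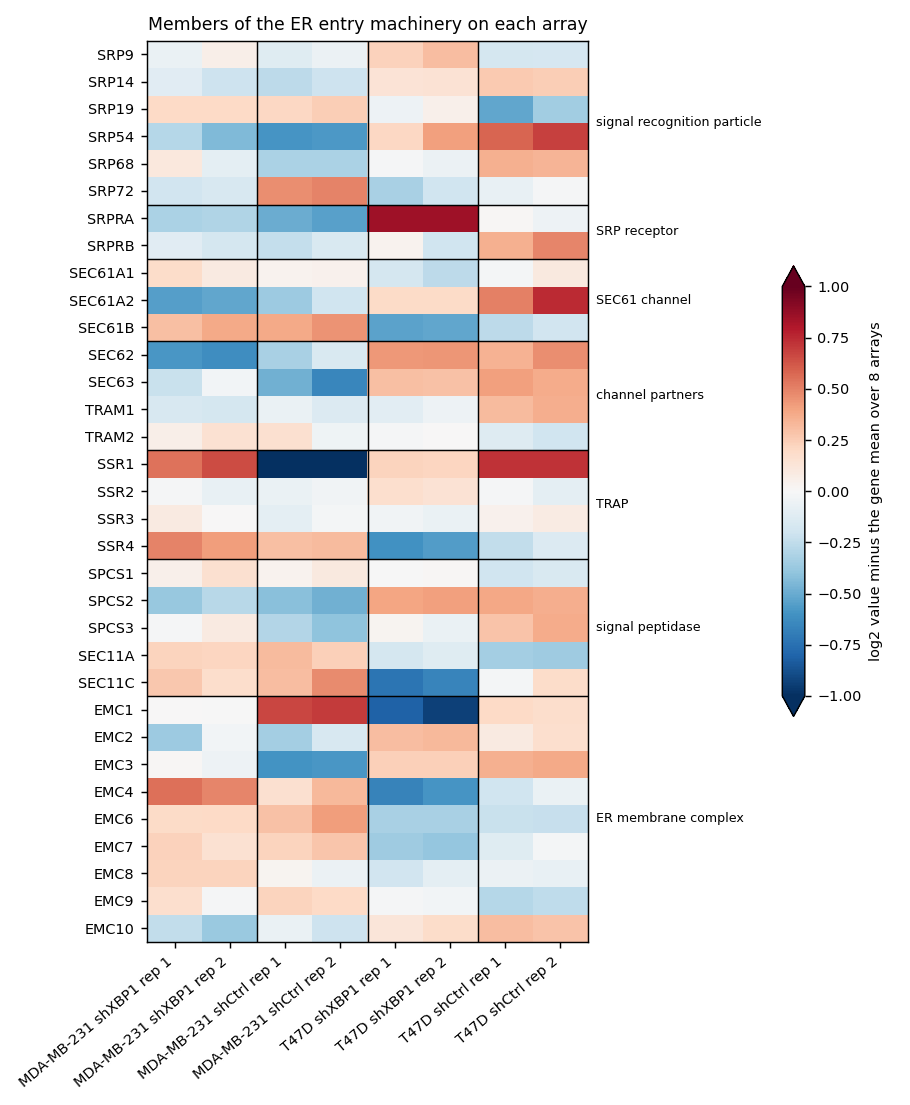
Log2 level of each gene (rows) on each array (columns) minus the mean of that gene over the 8 arrays, with shXBP1 left of shCtrl in each line and genes ordered by complex. The colour scale ends at 1 above and 1 below the mean, and values past it take the end colour. The darkest cells are SSR1 in MDA-MB-231 shCtrl cells (10.82 and 11.10), and EMC1 is lower with shXBP1 than with shCtrl in each line.

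The lines were also compared with each hairpin. These comparisons use the same arrays as those above and are given for the levels they show. With shCtrl, 11 of the 33 genes were higher and 15 lower in MDA-MB-231 than in T47D, and 7 did not pass. Among all genes 49% were called between the shCtrl lines, 23.7% higher and 25.2% lower, and among genes as bright 76.4%, beside 78.8% of the 33. With shXBP1, 11 were higher, 11 lower and 11 did not pass. Among all genes 50.8% were called between the shXBP1 lines, 25.9% higher and 25% lower, and among genes as bright 78.2%, beside 66.7% of the 33.

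The gap between the lines was wide for SSR1 with shCtrl, where MDA-MB-231 averaged 10.96 ± 0.20 and T47D 13.23 ± 0.0003 (SD, n = 2 each), a difference of -2.27 (SE 0.11, limma adjusted p = 1.28e-06) or 4.82-fold. With shXBP1 the SSR1 means were 13.10 ± 0.08 in MDA-MB-231 and 12.72 ± 0.0018 in T47D, a difference of 0.38 (adjusted p = 0.0218) that missed the threshold without shXBP1 replicate 2 of MDA-MB-231 (adjusted p = 0.0984), T47D shXBP1 replicate 1 (0.0868) or T47D shXBP1 replicate 2 (0.0889), and with quantile normalization applied again (0.25, adjusted p = 0.11). The SSR1 probe sets disagreed between the lines. With shCtrl 5 of the 6 were lower in MDA-MB-231, between -2.87 and -0.37, but the second brightest was higher, at 11.97 in MDA-MB-231 and 11.03 in T47D (0.95, adjusted p = 0.00017). Their mean gave -1.44 with shCtrl (adjusted p = 1.48e-06). With shXBP1 they ranged between -0.55 and 1.95. SRP54 was lower in MDA-MB-231 with both hairpins, with a difference of -0.67 with shXBP1 (adjusted p = 0.000884) and -1.22 with shCtrl (adjusted p = 2.91e-05). SEC62 was also lower, with a difference of -1.04 with shXBP1 (adjusted p = 3.76e-05) and -0.65 with shCtrl (adjusted p = 0.000653), which became -1.09 with the mean over probe sets (adjusted p = 7.47e-06).

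EMC4, SSR4 and SEC61B were higher in MDA-MB-231 with both hairpins. The differences with shXBP1 were 1.15 for EMC4 (adjusted p = 2.45e-05), 1.04 for SSR4 (adjusted p = 2.21e-05) and 0.86 for SEC61B (adjusted p = 5.51e-05). With shCtrl they were 0.37 for EMC4 (adjusted p = 0.014), 0.50 for SSR4 (adjusted p = 0.00161) and 0.64 for SEC61B (adjusted p = 0.000344). The EMC4 call was lost without MDA-MB-231 shCtrl replicate 2 (difference 0.29) or T47D shCtrl replicate 1 (0.31). The mean over SEC61B probe sets gave 1.40 (adjusted p = 2.49e-06). That larger value rests on the dim SEC61B probe set (mean 4.84), which read 2.16 and disagreed with the brighter one in the knockdown comparisons. SRPRA was lower in MDA-MB-231, with a difference of -1.16 with shXBP1 (adjusted p = 7.97e-06) and -0.50 with shCtrl (adjusted p = 0.00108). Its second probe set read 8.48 in MDA-MB-231 and 8.15 in T47D with shCtrl (0.33, adjusted p = 0.0854), and the mean of the pair gave -0.08 (adjusted p = 0.516), so the shCtrl call was lost. SPCS2, a signal peptidase subunit that passed in neither knockdown, was lower in MDA-MB-231, with a difference of -0.73 with shXBP1 (adjusted p = 0.000148) and -0.82 with shCtrl (adjusted p = 8.21e-05).

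**Figure D5:**
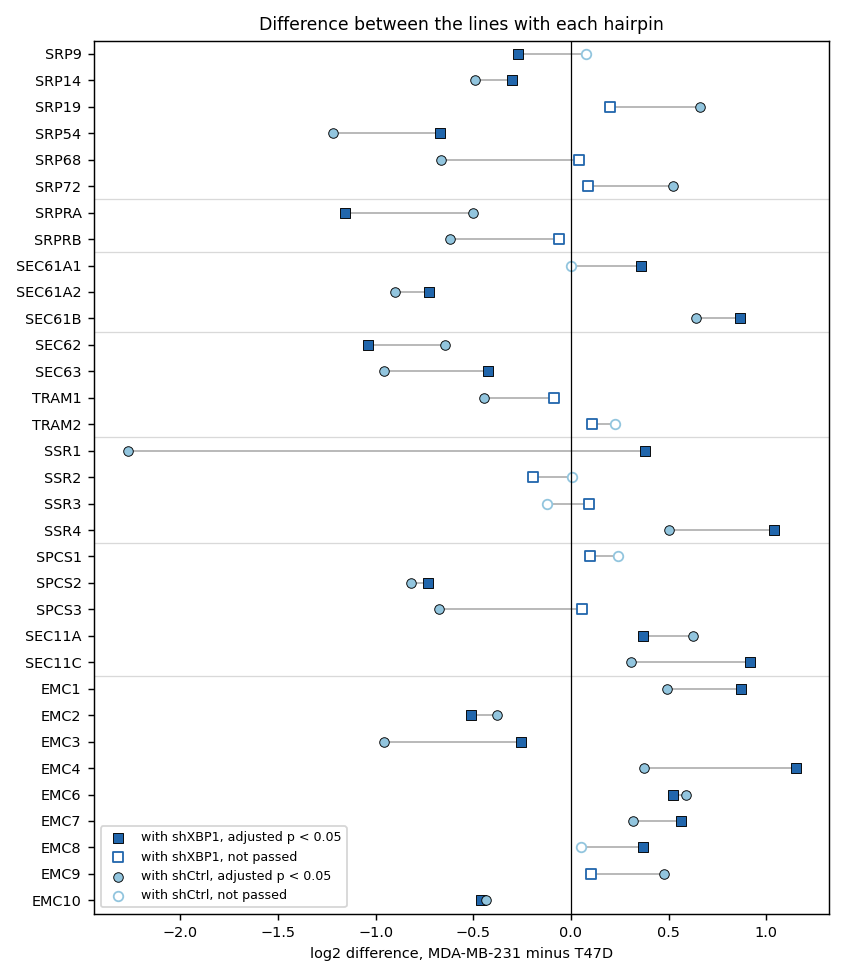
Log2 difference of MDA-MB-231 minus T47D for each gene with shXBP1 (squares) and shCtrl (circles), joined by a line, with filled symbols where the adjusted p was under 0.05. SSR1 has the longest line, between 0.38 with shXBP1 and -2.27 with shCtrl.

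Neighbouring pathways were counted beside the shares called over all genes (17.2% in MDA-MB-231 and 29.1% in T47D) and over genes at least as bright as the dimmest of the 33 (30.4% and 51.6%, with 26% lower in T47D). Their genes were read on the brightest probe set only. Whether their calls hold without an array or under other settings was not tested. Of 11 measured subunits of oligosaccharyltransferase, which glycosylates chains at the channel, 3 rose and 2 fell in MDA-MB-231 (median difference 0.07), and 0 rose and 6 fell in T47D (median -0.50), which is 45.5% called in MDA-MB-231 and 54.5% in T47D. KRTCAP2 fell by 0.80 in MDA-MB-231 (adjusted p = 0.0027) and fell by 1.41 in T47D (adjusted p = 9.75e-05), and TMEM258 fell by 0.52 in MDA-MB-231 (adjusted p = 0.00457) and fell by 0.97 in T47D (adjusted p = 0.000132). TUSC3 had the largest positive difference of these subunits in MDA-MB-231 (0.63), with a mean of 7.57 with shXBP1 and 6.94 with shCtrl. In T47D the TUSC3 means were 10.84 with shXBP1 and 10.99 with shCtrl. MAGT1, an oxidoreductase subunit, rose by 0.52 in MDA-MB-231 (adjusted p = 0.0138) and fell by 0.62 in T47D (adjusted p = 0.00316). STT3A, the catalytic subunit that works at the channel, differed by 0.20 in MDA-MB-231 (adjusted p = 0.191) and fell by 0.74 in T47D (adjusted p = 0.00072).

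Of 12 measured genes of other translocon-associated proteins, 3 rose and 2 fell in MDA-MB-231 (median 0.05), and 0 rose and 7 fell in T47D (median -0.35), or 41.7% called in MDA-MB-231 and 58.3% in T47D. MMGT1, which encodes the EMC5 subunit of the EMC and was not in the list of 34, rose by 0.48 in MDA-MB-231 (adjusted p = 0.0167) and fell by 0.35 in T47D (adjusted p = 0.0381). RRBP1, a ribosome-binding protein of the rough ER, rose by 0.52 in MDA-MB-231 (adjusted p = 0.0155) and fell by 0.35 in T47D (adjusted p = 0.0435). TMEM147, a translocon-associated membrane protein, fell by 0.29 in MDA-MB-231 (adjusted p = 0.0462) and fell by 0.58 in T47D (adjusted p = 0.00139). DNAJC1 had the most negative difference of these genes in MDA-MB-231 (-0.42), with a mean of 10.70 with shXBP1 and 11.12 with shCtrl. In T47D the DNAJC1 means were 9.72 with shXBP1 and 10.23 with shCtrl.

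In the separate route for tail-anchored proteins, 2 of 6 measured genes rose and 0 fell in MDA-MB-231, and 0 rose and 3 fell in T47D (33.3% and 50% called). GET1, a receptor subunit of that route, rose by 1.42 in MDA-MB-231 (adjusted p = 0.000232) and fell by 0.38 in T47D (adjusted p = 0.0294). GET3, its cytosolic ATPase, differed by 0.20 in MDA-MB-231 (adjusted p = 0.261) and fell by 0.54 in T47D (adjusted p = 0.00607). Of 8 genes of mitochondrial protein import, which serve another organelle, 4 rose and 0 fell in MDA-MB-231, and 1 rose and 2 fell in T47D (50% and 37.5% called). TOMM70, a mitochondrial import receptor, rose by 1.35 in MDA-MB-231 (adjusted p = 0.000155) and by 0.62 in T47D (adjusted p = 0.00113). GET4 of the tail-anchored route (mean 8.31) and TIMM23 of mitochondrial import (mean 3.93) were dimmer than the dimmest of the 33 (8.36). The shares over genes at least that bright therefore do not match these lists in full.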

How the data were processed

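The values are log2 expression levels as deposited by the authors, made with RMA and affy 1.30.0 per the submitters' processing notes. RMA corrects background, normalizes arrays by quantiles and summarises probes on the log2 scale. The sources used here do not say which arrays shared a normalization. Values lay between 2.75 and 15.6, array medians between 5.87 and 5.91, and no detection calls came with them. Folds at dim levels may be understated, which was not tested. No further normalization was applied.

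Probe sets were named through the array's annotation table, which listed 42898 of 54675 probe sets. The 1801 with several symbols were left out, and each of 19775 genes was represented by its brightest single-symbol probe set. Group means of all 8 arrays were fitted together in R 4.3.3 with limma 3.58.1 (lmFit, eBayes; 4 residual degrees of freedom, 7.62 after moderation). Tests were two-sided and adjusted by Benjamini-Hochberg over all genes. The median standard error was 0.119 for a knockdown and 0.168 for the difference between the lines, and the number of arrays limits the precision. With 2 arrays a side, 0.333 is the smallest p of an exact test. The fit was tested on simulated data with planted changes. A first version recovered fewer of them than required, and both the simulated noise and the pass criteria were then revised.

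The genes and lists were chosen with earlier results of these data known. Values on every array are given for genes called in a knockdown comparison, and others by differences. In all, 15 alternatives were tried. The comparison with genes at least as bright as the dimmest listed gene was added after seeing the data. Promoter windows are from RefSeq, GRCh38.p14.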

Additional observations from a re-analysis of the deposited data

Results flagged for a closer look

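The knockdown effects on 13 of the 33 genes differed between the lines by limma's test of the difference itself, given in log2 units with the T47D effect subtracted from that in MDA-MB-231. Positive differences were 0.55 for SRP54 (adjusted p = 0.0325), 0.70 for SRP68 (adjusted p = 0.00793), 0.56 for SRPRB (adjusted p = 0.0323), 0.53 for SEC63 (adjusted p = 0.0352), 2.65 for SSR1 (adjusted p = 0.000114) and 0.54 for SSR4 (adjusted p = 0.0166). Further positive differences were 0.73 for SPCS3 (adjusted p = 0.00611), 0.61 for SEC11C (adjusted p = 0.0227), 0.70 for EMC3 (adjusted p = 0.00377) and 0.78 for EMC4 (adjusted p = 0.0057). Negative differences were -0.46 for SRP19 (adjusted p = 0.0414), -0.44 for SRP72 (adjusted p = 0.0376) and -0.66 for SRPRA (adjusted p = 0.00522). The differences of SRP72, SPCS3 and SEC11C did not pass with the mean over probe sets. Among all genes 24.8% passed this test.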

How the results depend on the processing

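Over 15 alternatives (14 for the difference between the effects, which needs all groups in the fit), 4 of the 7 genes called in MDA-MB-231 kept their call in all (SRP72, SSR1, EMC1 and EMC3), as did 3 of 15 in T47D (SRPRA, SEC11C and EMC1) and 5 of 13 for the difference between the effects (SRP68, SRPRA, SSR1, EMC3 and EMC4). Between the lines 17 of 26 calls with shCtrl and 12 of 22 with shXBP1 were kept in all. The MDA-MB-231 count of 7 became 11 with a trended and robust fit, 4 with only the groups compared in the fit, and 4 to 6 when 1 array was left out. The T47D count of 15 became 21 with dim genes left out or with the trended and robust fit, and 5 to 15 when 1 array was left out. The count of 13 for the difference became 20 with dim genes left out, 24 with the trended and robust fit, and 7 to 9 when 1 array was left out. The labels do not say whether replicate numbers pair the samples. Deviations of same-numbered arrays correlated at -0.069 to 0.038, which with 2 arrays a group cannot exclude a pairing. With the replicate block the counts were 5 in MDA-MB-231, 14 in T47D and 8 for the difference, and with the block within each line 4, 12 and 8. Leaving out 1 array gave 22 to 26 calls between the shCtrl lines and 16 to 22 between the shXBP1 lines. Taking the mean over probe sets turned the sign of 22 of 165 differences, 18 of them called under neither setting. The 4 others were those of SEC62 in T47D (-0.32), of SEC61B in the difference between the effects (-0.73), of SEC11C between the shCtrl lines (-0.34) and of TRAM1 between the shXBP1 lines (0.27). With 2 arrays a group, leaving out an array leaves 1, which is assumed to vary like the other groups. Signal over background limits dim probe sets most.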
